A study of Mus musculus with 2 samples.

Results

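The Hox gene clusters comprise the protein-coding genes named Hoxa, Hoxb, Hoxc or Hoxd with a number from 1 to 13. Of the 54531 genes in the deposited table, 38 such genes are described here, of which 10 belong to HoxA, 10 to HoxB, 9 to HoxC and 9 to HoxD. Members were chosen by symbol and gene type alone, with antisense and opposite-strand transcripts left out. RNA came from haematopoietic stem cells (HSCs) sorted from mouse bone marrow, with 1 library per genotype. The control library is labelled Angptl2fl/fl, mice with floxed alleles of Angptl2, which encodes a secreted angiopoietin-like protein. The deletion library is labelled Cdh5-Cre;Angptl2fl/fl, the same floxed alleles plus a Cre recombinase under a Cdh5 promoter, Cdh5 being the cadherin of endothelial cells. Cdh5 promoters also drive Cre in the embryonic endothelium from which HSCs arise, and whether Angptl2 was intact in the HSCs themselves is not stated in the labels. The control library's description names Cdh5 and Cre and no floxed allele, so the labels do not settle whether its mice carried Cre. For age, sex and the number of mice per library the sources used here give nothing. With 1 library per genotype there is no replicate check and no p-value, and "higher" and "lower" describe these libraries only.

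Hox proteins are homeodomain transcription factors that set position along the body axis in the embryo, and their genes lie in clusters in the order in which they are expressed along that axis. In the marrow, genes of HoxA and HoxB are expressed in stem and progenitor cells and are shut off as cells differentiate. Hoxa9 and Hoxa10 act in myeloid progenitors and in leukaemia, and Hoxb4 is known for expanding HSCs when overexpressed. Hox proteins bind DNA together with PBX and MEIS cofactors. Their genes are held active by MLL (Kmt2a) complexes and silent by Polycomb complexes.

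Levels are given as FPKM, that is fragments scaled to gene length and to library size, which can be compared between genes. A fragment number per gene was recovered from FPKM and exon length for all 38 members, and ranges in parentheses after a fold are exact 95% counting intervals from those fragments. They cover counting error only. In the deletion library the commonest fragment number among detected genes was 6, with 453 genes there against 294 genes at 1 fragment, while in the control library it was 1, with 1386 genes. Each interval was therefore also computed with the fragments of both libraries divided by 6, a choice made after seeing the data.

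**Figure D1:**
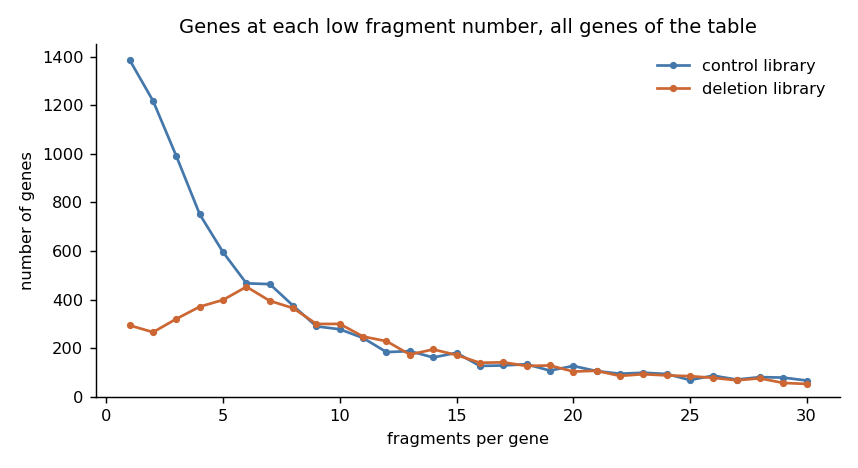
Number of genes (vertical axis) at each number of fragments per gene from 1 to 30 (horizontal axis), over all genes of the table, for the control library (blue) and the deletion library (orange). The control library falls from 1386 genes at 1 fragment, whereas the deletion library has its highest point, 453 genes, at 6 fragments.

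Promoter sequences of Hoxa9, Hoxa10 and Hoxa5 are shown because Hoxa9 was the most abundant member, Hoxa5 ranked next, and Hoxa10, the neighbour of Hoxa9, was the member at 1 FPKM or more that was higher in the deletion library. They are RefSeq sequences on GRCm38.p6, all on the minus strand of chromosome 6, from 250 bases before to 50 bases after a start site, with CpG dinucleotides in capitals. Positions are chr6:52227321-52227620 for Hoxa9, chr6:52240805-52241104 and chr6:52234890-52235189 for the 2 start sites of Hoxa10, and chr6:52204538-52204837 for Hoxa5.
Hoxa9: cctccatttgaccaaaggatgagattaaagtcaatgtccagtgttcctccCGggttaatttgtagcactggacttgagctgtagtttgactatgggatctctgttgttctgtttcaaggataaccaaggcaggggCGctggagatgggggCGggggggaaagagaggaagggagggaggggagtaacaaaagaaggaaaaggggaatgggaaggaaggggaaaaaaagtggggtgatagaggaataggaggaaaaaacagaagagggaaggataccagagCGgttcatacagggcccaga
Hoxa10, upstream start: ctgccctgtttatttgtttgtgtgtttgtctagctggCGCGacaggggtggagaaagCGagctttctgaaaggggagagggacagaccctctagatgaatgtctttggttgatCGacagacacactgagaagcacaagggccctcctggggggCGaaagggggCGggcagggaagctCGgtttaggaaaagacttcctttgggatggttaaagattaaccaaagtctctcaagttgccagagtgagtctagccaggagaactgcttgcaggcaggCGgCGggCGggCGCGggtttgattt
Hoxa10, downstream start: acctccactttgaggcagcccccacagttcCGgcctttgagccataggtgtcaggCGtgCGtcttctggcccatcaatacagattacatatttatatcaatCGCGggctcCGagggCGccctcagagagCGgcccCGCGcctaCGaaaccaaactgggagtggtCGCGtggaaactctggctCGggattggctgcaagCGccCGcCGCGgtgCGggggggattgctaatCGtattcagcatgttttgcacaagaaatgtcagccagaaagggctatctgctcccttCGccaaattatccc
Hoxa5: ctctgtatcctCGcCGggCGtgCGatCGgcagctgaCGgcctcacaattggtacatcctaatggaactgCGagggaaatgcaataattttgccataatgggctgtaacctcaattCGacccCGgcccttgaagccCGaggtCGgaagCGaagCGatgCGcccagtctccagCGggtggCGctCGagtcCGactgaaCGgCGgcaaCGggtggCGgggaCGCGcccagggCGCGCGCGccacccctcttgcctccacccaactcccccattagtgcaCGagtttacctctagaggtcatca
The Hoxa9 window holds 4 CpG dinucleotides, the Hoxa10 windows 12 (upstream start) and 21 (downstream start), and the Hoxa5 window 29. Over 24 windows for 22 members the median was 14.5, against 7 over all 32851 promoter windows of the same length. The downstream Hoxa10 window holds a TATA box match (TATAAA on either strand, present in 13.6% of all windows) and a CCAAT box match (CCAAT on either strand, present in 37.4%). The Hoxa5 window holds a CCAAT match and no TATAAA. The Hoxa9 window holds none of the motifs searched, which also included the E box CACGTG (7.15% of windows), the MEIS motif TGACAG (19.2%) and the PBX-HOX motif TGATTNAT (3.22%), each on both strands. A match is a description of these letters and not of binding.

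Transcripts of HoxA dominated in both libraries. The summed level of the 38 members was 26.8 FPKM in the control and 21.7 FPKM in the deletion library, and HoxA genes made up 85.1% and 87.3% of it. HoxB genes made up 14.5% and 12.7%. HoxC was represented in the control library by Hoxc6 alone, and all 9 HoxD genes were listed at 0 in both libraries. Of the 38 members, 17 were above 0 in the control and 14 in the deletion library, and the other 21 were listed at 0 in both. Among all 21918 protein-coding genes, 67.7% were above 0 in the control and 61.5% in the deletion library. For the 21 members at 0, a count of 0 fragments allows up to 3 fragments, or 0.041 to 0.167 FPKM in the control and 0.0423 to 0.173 FPKM in the deletion library, depending on gene length. They are Hoxa11, Hoxa13, Hoxb7, Hoxb13, every HoxC gene but Hoxc6, and all of HoxD. Hoxa11 and Hoxa13, and most of the silent HoxC and HoxD genes, are known for patterning the limbs and the posterior body.

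**Figure D2:**
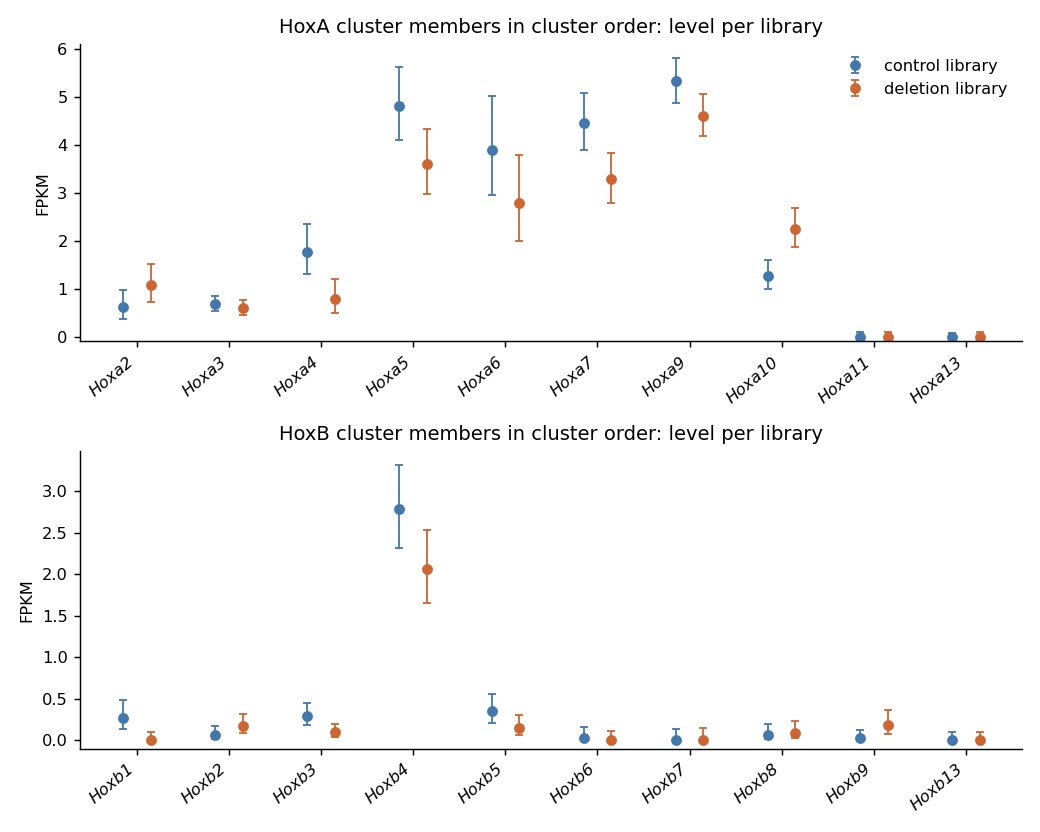
FPKM (vertical axis) of each HoxA gene (top) and HoxB gene (bottom) in cluster order, for the control library (blue) and the deletion library (orange), with bars giving exact 95% Poisson counting intervals. HoxA levels peak at Hoxa5 to Hoxa9, and Hoxb4 is the one HoxB gene above 1 FPKM.

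Along HoxA (chromosome 6, 52162417 to 52260880 for the members described, GRCm38) the levels were low at the anterior end, highest from Hoxa5 to Hoxa9 and not detected at Hoxa11 and Hoxa13. Hoxa9 stood first in both libraries, at 5.33 FPKM in the control and 4.60 FPKM in the deletion library, which places it above 68.6% and 67.3% of protein-coding genes. Hoxa5, Hoxa7 and Hoxa6 followed in that order in both. Hoxb4, Hoxa4 and Hoxa10 came next in the control library, whereas in the deletion library Hoxa10 ranked 5, ahead of Hoxb4, and Hoxa4 ranked 8, behind Hoxa2. The ratio of each member to the next one down was compared with its exact 95% counting interval. In the control library the interval included equality for Hoxa9 over Hoxa5 (1.11, 0.925 to 1.33), Hoxa5 over Hoxa7, Hoxa7 over Hoxa6 and Hoxa4 over Hoxa10. It lay above equality for Hoxa6 over Hoxb4 (1.40, 1.01 to 1.92) and Hoxb4 over Hoxa4 (1.57, 1.12 to 2.24). In the deletion library it lay above equality for Hoxa9 over Hoxa5 (1.27, 1.03 to 1.58) and Hoxb4 over Hoxa2 (1.92, 1.27 to 2.98), and included it for the steps from Hoxa5 down to Hoxb4 and from Hoxa2 to Hoxa4. With the fragments divided by 6 every one of these intervals included equality.

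Members with a mean of at least 1 FPKM over both libraries numbered 7, namely Hoxa4, Hoxa5, Hoxa6, Hoxa7, Hoxa9, Hoxa10 and Hoxb4. On the log2((FPKM + 1)/(FPKM + 1)) scale, deletion over control, 6 of the 7 were below 0 and 1 was above. None of the 7 was at least 2-fold higher and none at least 2-fold lower, against 2.47% higher and 3.38% lower among 12325 genes (0.489% and 0.753% among 10232 protein-coding genes). The added 1 FPKM pulls the ratios of genes at these low levels toward 0, so a difference of 2-fold in plain FPKM can be missed by this count. The median of the 7 was -0.34, with -0.01 over all genes and -0.05 over the 2846 protein-coding genes whose mean lay in the same range of 1.28 to 4.96 FPKM. A ratio below 0 was found for 51.6% of all genes, 52.1% of protein-coding genes and 57% of those in that range, and a ratio above 0 for 48.4% of all genes. In the range of the members the quartiles were -0.25 and 0.16. The 31 other members did not reach the minimum, so these counts describe the most abundant members only.

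The central HoxA genes were lower in the deletion library as a run. Hoxa5, a regulator of lineage choice in blood progenitors, was at 4.81 FPKM in the control and 3.61 FPKM in the deletion library (157 and 114 fragments), a fold of 0.749 (0.583 to 0.96). Hoxa6 was at 3.88 and 2.79 FPKM from 59 and 41 fragments, a fold of 0.717 (0.469 to 1.09) whose interval includes equality. Hoxa7 was at 4.46 and 3.28 FPKM from 223 and 159 fragments, a fold of 0.736 (0.596 to 0.906). These 3 genes thus differed by nearly the same factor. Hoxa9, the HOX gene most studied in acute myeloid leukaemia, was closer to equality at a fold of 0.862 (0.757 to 0.982), from 517 and 432 fragments. Hoxa4 was the furthest below, at 1.77 and 0.782 FPKM from 49 and 21 fragments, a plain fold of 0.442 (0.252 to 0.751), which is past 2-fold without a pseudocount. With 1 FPKM added its log2 ratio was -0.64, which makes Hoxa4 the one member past 1.5-fold lower, against 6.08% of all genes. It is a value that 4.78% of protein-coding genes of the same range matched or went below. Summed over Hoxa4, Hoxa5, Hoxa6, Hoxa7 and Hoxa9, the level was 20.3 FPKM in the control and 15.1 FPKM in the deletion library. Each of these 5 genes was lower on its own, so their lower sum adds no separate support.

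Hoxa10 went the other way. It was at 1.27 FPKM in the control and 2.25 FPKM in the deletion library (72 and 124 fragments), a fold of 1.78 (1.32 to 2.41). Its log2 ratio with 1 FPKM added was 0.52, and 5.31% of protein-coding genes in the range matched or exceeded it. Hoxa9 and Hoxa10 are adjacent genes whose annotated models are on the same strand, and their ratio within a library does not depend on how the libraries were scaled. Hoxa10 stood at 0.238 of the Hoxa9 level in the control and at 0.49 in the deletion library. Hoxa7 relative to Hoxa9 was 0.837 and 0.714.

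**Figure D3:**
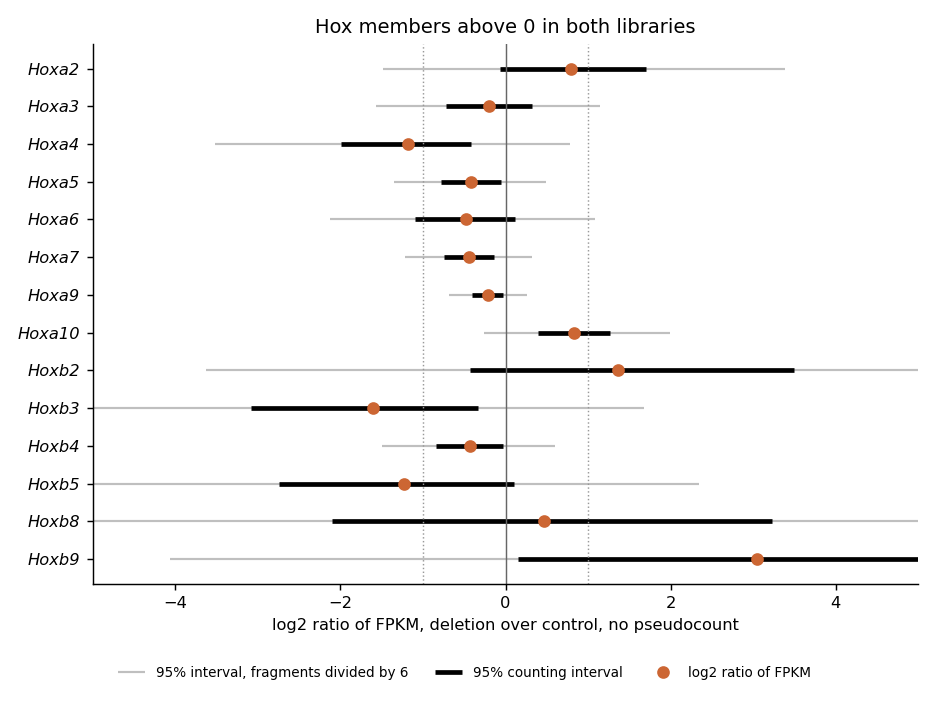
Log2 ratio of FPKM without a pseudocount, deletion over control (horizontal axis), for the members above 0 in both libraries, with 95% counting intervals (black) and the same intervals after dividing the fragments by 6 (grey), each drawn up to the limits of the axis. Hoxa4 to Hoxa9 lie left of 0 and Hoxa2 and Hoxa10 to the right, and every grey interval includes 0.

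Counting intervals leave out error between replicates, which 1 library per genotype cannot show. The 95% counting interval excluded equality for 6 of the 7 members, but it did so for 50.2% of protein-coding genes in the same range of levels. With the fragments divided by 6, it excluded equality for none of the 7 members and for 10.5% of those genes. Both shares are over all 2846 genes of that range, where any gene without a recovered fragment number counts as including equality. With the fragments so divided, Hoxa10 had an interval of 0.832 to 3.97, Hoxa4 of 0.0877 to 1.72 and Hoxa9 of 0.622 to 1.19. With that divisor no difference in a single member was detected. The divisor is a setting taken from the deletion library's commonest fragment number and is no estimate of replicate error.

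In HoxB (chromosome 11, 96194316 to 96368256) Hoxb4 carried most of the signal. It was at 2.78 FPKM in the control and 2.06 FPKM in the deletion library (124 and 89 fragments), a fold of 0.741 (0.558 to 0.98), close to the folds of Hoxa5 and Hoxa7. Hoxb3 was at 0.298 and 0.0978 FPKM from 22 and 7 fragments, and Hoxb5, a gene used to mark long-term HSCs, at 0.351 and 0.149 FPKM from 17 and 7 fragments. Both are near the limit of detection, and the interval of Hoxb5, 0.149 to 1.08, includes equality. Hoxb1 was at 0.273 FPKM from 11 fragments in the control library and listed at 0 in the deletion library, which is at least 3.55-fold lower with 3 fragments as the floor. Hoxb2 with 4 and 10 fragments, Hoxb8 with 3 and 4, and Hoxb9 with 1 and 8 were higher in the deletion library. Hoxb6 had 1 fragment and 0. Hoxc6 had 5 control fragments and 0 deletion fragments, and its counting interval, up to a fold of 1.13, includes equality. Of the 17 members detected in the control library, 3 were thus listed at 0 in the deletion library, and the same held for 11.5% of all protein-coding genes above 0 in the control library. Among protein-coding genes with 1 to 11 control fragments it held for 59.4%.

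At the anterior end of HoxA the levels were low and the differences mixed. Hoxa2, which patterns the hindbrain, was at 0.616 FPKM in the control and 1.07 FPKM in the deletion library, with 19 and 32 fragments, a fold of 1.74 (0.955 to 3.24). Hoxa3 was at 0.679 and 0.592 FPKM from 71 and 60 fragments, a fold of 0.872 (0.608 to 1.25). The 10 detected members under the minimum included 4 higher and 6 lower.

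Grouped by paralog number, the central genes (4 to 8) summed to 18.3 FPKM in the control and 12.8 FPKM in the deletion library, a fold of 0.698. Of 9 detected central genes 8 were lower, against 56.2% of protein-coding genes above 0 in either library. Both the exception, Hoxb8, and Hoxb6 and Hoxc6 among the lower ones rest on 5 fragments or fewer in each library, and the intervals of Hoxa6 and Hoxb5 include equality. The anterior genes (1 to 3) summed to 1.93 and 1.93 FPKM and the posterior genes (9 to 13) to 6.62 and 7.03 FPKM. The central share of the whole Hox sum was 68.1% and 58.7%, and the posterior share 24.7% and 32.4%. The posterior sum consists of Hoxa9, Hoxa10 and Hoxb9 only, so its higher level in the deletion library rests on Hoxa10.

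**Figure D4:**
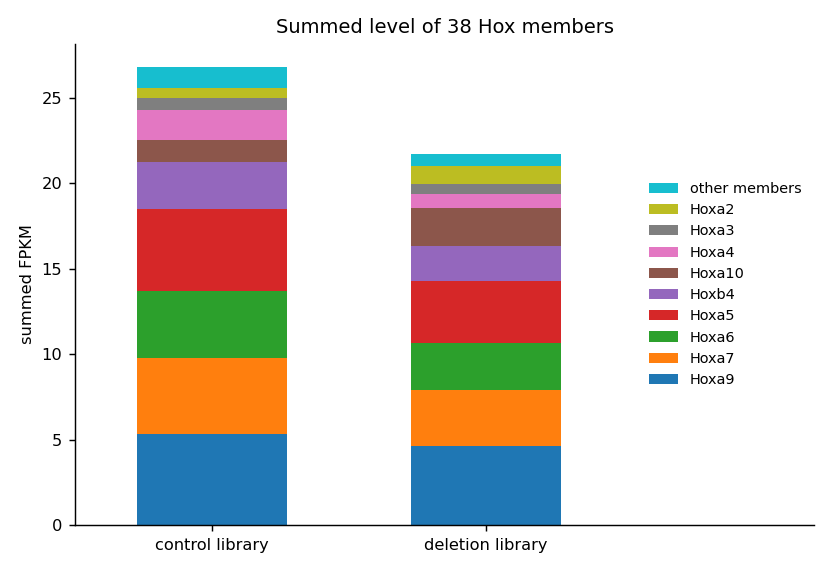
Summed FPKM of the 38 members (vertical axis) in the control and deletion libraries, stacked by gene. The total is 26.8 FPKM in the control and 21.7 FPKM in the deletion library, and the Hoxa10 segment takes 4.72% and 10.4% of it.

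Between these members lie 41 annotated genes that are not members, most of them noncoding. Of these, 10 were above 0 in the control and 4 in the deletion library, with 156 fragments in all against 36, and 9 of the 10 were lower in the deletion library. Hoxaas2, antisense to Hoxa3, had 36 fragments and 0. Its counting interval reached up to a fold of 0.111, and up to 0.876 with the fragments divided by 6. Hoxaas3, whose exons overlap Hoxa3 and Hoxa7 on the opposite strand, had 40 and 12 fragments, and Hoxb5os had 13 and 0. A lower value was found for 61.4% of all genes that are not protein-coding and were above 0 in either library. Among those that had 10 to 40 control fragments, 66.2% were lower in the deletion library and 18.1% were listed at 0. Hotair and Hottip were listed at 0 in both libraries. Whether counting used strand is not given in the sources used here, and without strand, reads of a member and its antisense partner cannot be told apart. Hoxaas3 shares 20.4% of the exon bases of Hoxa7, and Hoxb3os shares 52.9% of those of Hoxb3. The antisense gene Gm29430, with 6 and 0 fragments, shares 16.0% of those of Hoxa4. No other gene shares exon bases with Hoxa5, Hoxa6, Hoxa10 or Hoxb4. Of the 50-base windows of their transcripts, at most 0.364% recur in another Hox gene for Hoxa4, Hoxa5, Hoxa6, Hoxa7, Hoxa9, Hoxa10 and Hoxb4, so fragments of that length could rarely be exchanged between these paralogs.

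The clusters encode microRNAs that are known to target Hox mRNAs, and their seeds (bases 2 to 8, in capitals) fall into the miR-196 and miR-10 groups. The sequences are RefSeq mature forms on GRCm38.p6.
mmu-miR-196b-5p: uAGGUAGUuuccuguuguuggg
mmu-miR-196a-5p: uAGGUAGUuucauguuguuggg
mmu-miR-10a-5p: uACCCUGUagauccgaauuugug
mmu-miR-10b-5p: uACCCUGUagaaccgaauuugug
Within each group the seed is shared. Mir196b lies inside the Hoxa9 gene model, Mir10b inside that of Hoxd4 and Mir10a beside Hoxb4. Mir10a had 1 fragment in the control and 0 in the deletion library, and Mir196b, both Mir196a genes and Mir10b were listed at 0. The labels do not describe a small RNA preparation, so these values do not measure the mature forms.

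Of 8 PBX, MEIS and PREP (Pknox) genes, which encode cofactors of Hox proteins, 5 reached 1 FPKM, with a median log2 ratio of -0.06. None of the 5 passed 2-fold, against 0.489% higher and 0.753% lower among protein-coding genes. At those shares a list this short would seldom hold a gene past 2-fold. Meis1, the cofactor that cooperates with Hoxa9, was at 6.29 FPKM in the control and 5.32 FPKM in the deletion library, a fold of 0.845 (0.775 to 0.922), close to that of Hoxa9. With the fragments divided by 6 its interval was 0.68 to 1.05. Pbx4 was at 13.3 and 11.3 FPKM and Pbx3 at 1.83 and 1.72 FPKM. Pbx2 was the most abundant and the highest in ratio, at 22.2 and 25.9 FPKM, followed by Pknox1 at 5.74 and 6.55 FPKM. Meis3 was at 0.617 and 0.225 FPKM, Pknox2 at 0.0278 and 0.046 FPKM, and Meis2 was listed at 0 in both.

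Of 25 genes listed here for a link to active Hox clusters, 22 reached 1 FPKM, with a median of -0.08. None of the 22 passed 2-fold, against 0.489% higher and 0.753% lower among protein-coding genes. Below 0 were 14 of them, against 52.1% of protein-coding genes. Kmt2a, which encodes the MLL1 methyltransferase, was the lowest, at 13.8 FPKM in the control and 10.1 FPKM in the deletion library, a fold of 0.732 (0.698 to 0.769). With the fragments divided by 6, the interval lay below equality for 3 of the 22, Kmt2a (0.65 to 0.825), Kat6a and Kdm6b, and above it for 3, Dpy30 (1.17 to 1.94), Npm1 and Ash2l. It excluded equality for 20.1% of the 9664 protein-coding genes at that minimum that had an interval. Men1, its partner menin, was at 19.1 and 20.2 FPKM. Kat6a, an acetyltransferase, was the next lowest at 14.5 and 12.2 FPKM. Dpy30, a small subunit shared by all MLL complexes, was the highest at 32.3 and 48.6 FPKM, and Npm1 (nucleophosmin) followed at 408 and 537 FPKM. Of the caudal genes, Cdx1 and Cdx4 were listed at 0 in both libraries and Cdx2 had 3 fragments and 0.

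All 22 genes of the Polycomb list reached 1 FPKM, with a median of -0.06. None passed 2-fold, against 0.489% higher and 0.753% lower among protein-coding genes. Below 0 were 13 of them, against 52.1% of protein-coding genes. Ezh2, the methyltransferase of Polycomb complex 2, was at 24.4 FPKM in the control and 27.6 FPKM in the deletion library, and Bmi1, of complex 1, at 15.7 and 15.8 FPKM. Phf19, an accessory subunit of complex 2, was the highest at 3.30 and 5.43 FPKM, and Eed at 17.8 and 20.2 FPKM came next. Pcgf2 was the lowest at 2.87 and 2.10 FPKM, followed by Phc1 at 9.34 and 7.42 FPKM. Genes flanking the clusters on the same chromosomes had a median of 0.09 over the 14 of 19 that reached 1 FPKM, with none past 2-fold. The highest were Mtx2, beside HoxD, at 12.8 and 17.8 FPKM, and Copz1, on the chromosome of HoxC, at 34.1 and 44.0 FPKM. The lowest were Cbx5 at 29.3 and 23.3 FPKM and Snx11 at 6.31 and 5.11 FPKM.

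Among 16 genes associated with Hoxa9 and Meis1 activity in progenitors, 15 reached 1 FPKM, with a median of -0.16. Of the 15, 10 were below 0, against 52.1% of protein-coding genes. None passed 2-fold with 1 FPKM added, against 0.489% higher and 0.753% lower among protein-coding genes. Id2, an inhibitor of helix-loop-helix factors, was the lowest at 4.34 FPKM in the control and 1.92 FPKM in the deletion library, a plain fold of 0.443 (0.336 to 0.58) that is past 2-fold without a pseudocount. With the fragments divided by 6 its interval was 0.213 to 0.87. Sox4 was next at 11.4 and 7.45 FPKM. Mycn was the highest at 2.50 and 3.46 FPKM, and Eya1 followed at 0.988 and 1.30 FPKM.

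**Figure D5:**
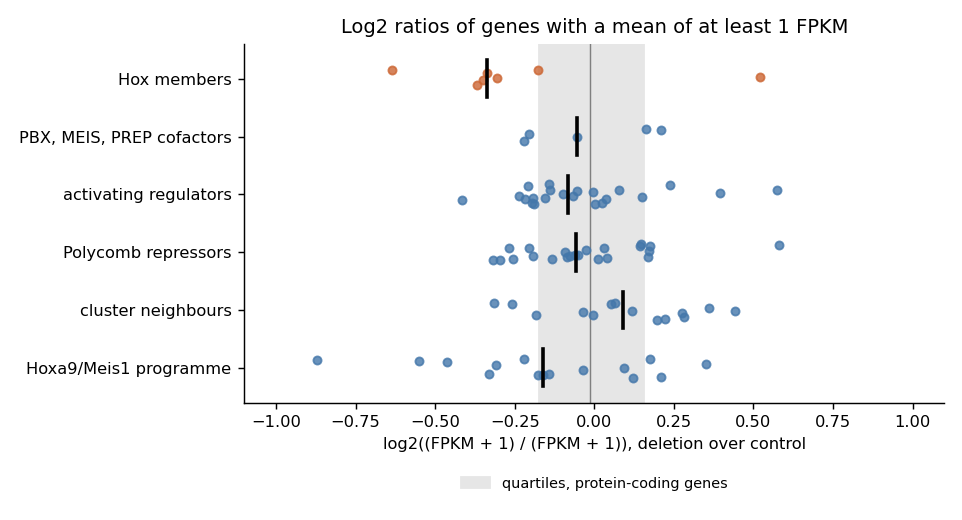
Log2((FPKM + 1)/(FPKM + 1)), deletion over control (horizontal axis), for each gene with a mean of at least 1 FPKM in the Hox members and 5 related lists (rows), with a black bar at each list's median and grey shading between the quartiles of protein-coding genes. The Hox median of -0.34 lies left of the shading and the medians of the 5 other lists lie inside it.

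The cells of the libraries differed in other markers, and in bulk RNA fewer cells of a type and less RNA per cell cannot be told apart. Of 14 HSC markers 13 reached 1 FPKM and 11 of those were below 0, against 51.6% of all genes, with a median of -0.16. They ran from Pdzk1ip1 at 11.6 FPKM in the control and 6.95 FPKM in the deletion library to Ctnnal1 at 1.22 and 1.57 FPKM. Hoxa9 and Hoxa10 are also expressed in committed myeloid progenitors. Of 8 genes of these progenitors, 6 were higher by at least 2-fold, against 2.47% of all genes. Among the 6 was Mpo at 281 and 723 FPKM. Irf8, a factor of the monocyte and dendritic cell lines, went the other way at 2.10 and 0.581 FPKM, a plain fold of 0.277 (0.209 to 0.363). The list's summed level was 1043 FPKM in the control and 2715 FPKM in the deletion library. Of 12 genes of mature myeloid cells 10 were at least 2-fold lower, against 3.38% of all genes, with sums of 2803 and 1540 FPKM. Erythroid genes summed to 1978 and 2229 FPKM, with 1 of 8 at least 2-fold lower. Megakaryocyte genes summed to 81.9 and 175 FPKM, with 3 of 8 at least 2-fold higher. B cell genes summed to 36.4 and 34.1 FPKM, with none past 2-fold among the 5 that reached 1 FPKM. The sorted cells thus carried mRNA of later blood cells beside that of HSC markers, whose levels varied widely. Kit was the most abundant of these markers, at 54.3 FPKM in the control and 48.8 FPKM in the deletion library. Gata2 followed at 42.2 and 40.3 FPKM. Fgd5 was at 2.29 and 1.55 FPKM and Mecom at 1.67 and 1.36 FPKM. Slamf1, the marker that did not reach 1 FPKM, had 43 and 57 fragments. Endothelial markers summed to 112 and 103 FPKM, of which Eng took 66.4 and 59.6 FPKM, while Cdh5 was at 0.0274 FPKM and at 0. Kdr was at 0.0956 and 0.138 FPKM and Stab2 at 0.289 and 0.102 FPKM. Tek is in both this list and the HSC list, so the lists overlap. Of 14 stromal markers 2 reached 1 FPKM, Runx2 at 5.48 and 4.27 FPKM and Pdgfrb at 2.43 and 3.26 FPKM, and the list summed to 9.52 and 8.997 FPKM. The stromal markers under 1 FPKM were mixed in direction. The collagen gene Col1a2 had 175 and 133 fragments and Col1a1 had 68 and 4, a plain fold of 0.0607 (0.0161 to 0.163). Dcn with 7 and 0 and Pdgfra with 2 and 0 were also lower. Cxcl12 was higher with 11 and 37 fragments, a plain fold of 3.47 (1.73 to 7.54). Also higher were Sp7 with 3 and 17, Postn with 0 and 8, Lum with 0 and 6 and Col3a1 with 0 and 4. Lepr, Prrx1 and Tbx18 were at 0 in both libraries. The part of these cells in the Hox ratios was not tested. Angptl2 itself had 29 and 19 fragments, at 0.265 and 0.179 FPKM, and at that level it does not check the genotype labels.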

How the data were processed

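RNA of sorted HSCs from 1 control and 1 deletion library was sequenced as paired-end reads, per the labels' protocols. The authors deposited FPKM per Ensembl gene. The submitters' processing notes list Bowtie 0.12.2 and build mm8 without a role. For the counting program and its strand setting the sources used here give nothing. Symbols came from a list of gene names, and gene types, exon lengths and positions from GENCODE M21 (GRCm38), whose build differs from the one in the notes. Within 0.02 of whole fragments lay 96.5% of detected genes in the control and 96.1% in the deletion library, at scaling depths of 17378600 and 16843100 fragments. Ratios are log2((FPKM + 1)/(FPKM + 1)), called at 2-fold with a mean of at least 1 FPKM. Counting intervals are exact Clopper-Pearson intervals for ratios and Poisson intervals for levels, at 95%. The steps used Python 3.11.15, numpy 2.4.6, pandas 2.3.3 and scipy 1.17.1. The computation was tested on simulated data.

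The members described were named, with all PBX, MEIS and PREP genes. Of each other related list that is not a cell type marker list, the 2 highest and 2 lowest ratios were named. From the marker lists some genes were named without that rule. Some genes are not reported here and are left out of the member and list counts and sums. Members and lists were chosen with earlier results of these data known. Alternatives were other pseudocounts, minimums, thresholds and scalings. Genes singled out beyond that rule, among them the noncoding genes of the clusters, were named after their values were seen.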

Additional observations from a re-analysis of the deposited data

How the results depend on the processing

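The summed HoxA and HoxB levels stayed lower in the deletion library under each scaling tried and without their most abundant member, and the number of members counted as higher stayed at 0 in each setting with members left. The number counted as lower was 1, Hoxa4, with a pseudocount of 0.1 and at a threshold of 1.5-fold. At those settings 4.86% and 6.08% of all genes were lower. The median log2 ratio of the members was -0.19 with a pseudocount of 5, -0.50 on the TPM scale (equal totals for both libraries), where 9 members passed and the median of all genes was -0.16, and 0 without a minimum, where the 21 undetected members enter. A minimum of 5 FPKM left no member. No log2 ratio for HoxC or HoxD could be given, because HoxC was at 0 in the deletion library and HoxD in both. No paired analysis was possible because each genotype has 1 library. Depth limits all members with few fragments.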
